A study of Mus musculus with 12 samples.

Results

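The genes described are 10 transcripts of the Wnt pathway in mouse embryonic stem (ES) cells, 6 target genes of β-catenin (Axin2, Notum, Nkd1, Lgr5, Sp5 and Cdx1) and the 4 TCF/LEF factors (Lef1, Tcf7, Tcf7l1 and Tcf7l2). They are the rows of the 12 expression tables whose gene identifier, without its version, carries one of these symbols in GENCODE mouse release M 21, 10 of 52550 genes listed, and all 10 passed the filter on low counts. The symbols were chosen by the roles of the genes, by no threshold on their values, but with earlier results of these data known. Messenger RNA was sequenced from ES cells in 6 groups of 2 libraries, and the study asked how the BET inhibitor JQ1 acts on cells in which β-catenin is stabilised by different means.

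GSK3 knockout ES cells were grown in serum/LIF (SL) and treated with JQ1 or with the solvent DMSO. Unmodified ES cells, those whose labels name no knockout, were grown in 2iL, a serum-free medium with LIF that adds inhibitors of the kinases MEK (1 µM PD0325901) and GSK3, or in SL, again with JQ1 or DMSO. JQ1 was given at 100 nM, every group was collected after 60 h, and both media held LIF at 1000 U/ml. The SL cells had been kept on mitotically inactive mouse embryonic fibroblasts and were moved to gelatin for the experiment, while those in 2iL were cultured on gelatin, so that a difference between media is also one of feeder history. The labels do not name the ES cell line, the knockout clone or whether both GSK3 genes were targeted. They also do not say that the replicates were separate cultures, and p-values therefore speak only to the spread among these 12 libraries, which may be technical.

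In the Wnt pathway the kinase GSK3 marks β-catenin for destruction, and when a Wnt ligand or an inhibitor stops GSK3, β-catenin enters the nucleus and binds TCF/LEF proteins that already sit on DNA. TCF/LEF factors repress their target genes when no β-catenin is bound and activate them, to different degrees, when it is. In mouse ES cells Tcf7l1 (TCF3) is known mainly as a repressor of pluripotency genes, and inhibition of GSK3 is known to relieve that repression. JQ1 displaces BET proteins, readers of acetylated histones that help RNA polymerase elongate, from chromatin.

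The libraries held 17869865 to 48723436 expected counts, with SL DMSO replicate 1 the deepest and 29882439 in the next. Of the 2 genes that encode GSK3, the 4 knockout libraries held 23.4 to 32.9 CPM (counts scaled to library size) of Gsk3a, against 65.1 to 129.9 CPM in the other 8, and 42.5 to 61.1 CPM of Gsk3b, against 72.2 to 158 CPM. The ES cell markers (8 genes) were all detected in every group, with summed levels between 1240 and 4220 CPM. Markers of other cells differed between groups as well. The 12 fibroblast markers, dominated by Fn1, summed to 1911 to 2164 CPM with JQ1 and 2917 to 3121 CPM with DMSO in knockout libraries. The sums were 3673 to 4440 CPM with JQ1 and 1693 to 2167 CPM with DMSO in 2iL, and 1676 to 2401 CPM with JQ1 and 3486 to 3702 CPM with DMSO in SL. In 2iL with DMSO 5 of the 12 were at 0 and 8 were under 1 CPM, among them Col1a1, Col3a1, Dcn and Lum, whereas in SL with DMSO none was at 0. The 10 mesendoderm markers summed to 138 to 150.5 CPM in knockout cells, 19.5 to 29.3 CPM in 2iL and 178.6 to 256.9 CPM in SL, all with DMSO. The 10 primitive endoderm markers summed to 558 to 702.5 CPM in knockout cells, 244.5 to 269.5 CPM in 2iL and 538 to 639.9 CPM in SL, again with DMSO. Sparc made up most of this SL sum, at 554 and 457 CPM, and had 195 and 193 CPM in the knockout. For the 8 neural markers the sums with DMSO were 35.6 to 42.6 CPM in the knockout, 107 to 126 CPM in 2iL and 267 to 367 CPM in SL. Nes made up most of that SL sum, at 321 and 215 CPM. The part of these cells in the results below was not tested, and in bulk RNA fewer cells of a type cannot be told apart from less RNA per cell.

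TCF/LEF proteins bind sequences around the core CTTTG, in the best known sites as CTTTGA. The proximal promoters of 3 members are shown, of which Axin2 rose and Sp5 and Lef1 fell in the knockout. The call of Lef1 was lost in several of the fits given below. Promoter windows from the RefSeq table (GRCm38.p6) were examined for 7 of the 10 members, 12 windows in all. Each window holds 250 bases before and 50 after a transcript start. Windows of Cdx1, Notum and Lgr5 were not examined, which does not show that the RefSeq table lacks them. The 250 bases before the start are printed 5′ to 3′ on the coding strand, with the core (CTTTG, or CAAAG on the other strand) in capitals. They lie at chr2:70474673-70474922 for Sp5, chr3:131110047-131110296 for Lef1 (the most upstream of its 4 windows) and chr11:108920099-108920348 for Axin2, all on the plus strand.
Sp5: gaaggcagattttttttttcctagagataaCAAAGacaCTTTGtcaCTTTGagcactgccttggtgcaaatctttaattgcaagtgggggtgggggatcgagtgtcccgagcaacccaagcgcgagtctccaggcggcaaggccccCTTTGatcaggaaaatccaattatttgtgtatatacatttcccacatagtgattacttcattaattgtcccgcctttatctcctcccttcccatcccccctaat
Lef1: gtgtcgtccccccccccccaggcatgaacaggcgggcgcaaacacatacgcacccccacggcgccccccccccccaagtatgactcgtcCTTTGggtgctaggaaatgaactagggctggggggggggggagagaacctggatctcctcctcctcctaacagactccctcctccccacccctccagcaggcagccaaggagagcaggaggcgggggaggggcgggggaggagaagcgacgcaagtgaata
Axin2: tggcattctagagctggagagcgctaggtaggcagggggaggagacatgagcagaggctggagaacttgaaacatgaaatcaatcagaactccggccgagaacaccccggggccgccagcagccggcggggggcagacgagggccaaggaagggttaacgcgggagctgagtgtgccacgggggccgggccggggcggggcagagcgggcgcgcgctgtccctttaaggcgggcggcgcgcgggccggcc
The Sp5 stretch holds 4 cores, at positions -220, -212, -204 and -104 from the start, of which 2 read CTTTGA on either strand. The printed Lef1 stretch holds 1 core and no CTTTGA, and the Axin2 stretch holds 0 of both. The other 3 Lef1 stretches hold 2, 1 and 3 cores, and the last of them (chr3:131156044-131156293, plus strand) holds 2 CTTTGA, as many as that of Sp5, so the letters near Lef1 depend on the start chosen. Among all 32851 windows of 300 bases in the table, 16.0% hold at least 1 CTTTGA (with TCAAAG on the other strand) and 1.73% hold 2 or more, while the shorter core, which every CTTTGA contains, is in 53.93%. The 300-base Sp5 window holds 5 cores, the most of the 12 windows examined and a number reached by 0.29% of all windows. As the highest of 12 it cannot be set against that share as a window picked in advance could. The windows of Nkd1 and Tcf7 hold 0 cores, and each window of Tcf7l1 and Tcf7l2 holds 1. A match describes the letters only. RefSeq's own record of the Axin2 gene begins further upstream, at 108917828, so the Axin2 stretch is the promoter of a downstream start.

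The members lie on several chromosomes (GRCm38). Axin2 (ENSMUSG00000000142.15, plus strand, 108920349 to 108950783), Notum (ENSMUSG00000042988.10, minus strand, 120653788 to 120661175) and Tcf7 (ENSMUSG00000000782.15, minus strand, 52252371 to 52283014) are on chromosome 11. Sp5 (ENSMUSG00000075304.2) is on chromosome 2 at 70474923 to 70477729, Lef1 (ENSMUSG00000027985.14) on chromosome 3 at 131110471 to 131224356, and Tcf7l1 (ENSMUSG00000055799.13) on chromosome 6 at 72626378 to 72789254. Nkd1 (ENSMUSG00000031661.12) is on chromosome 8, Lgr5 (ENSMUSG00000020140.15) on chromosome 10, Cdx1 (ENSMUSG00000024619.8) on chromosome 18 and Tcf7l2 (ENSMUSG00000024985.18) on chromosome 19. Notum overlaps the antisense transcripts Notumos and Myadml2os, and its counts were not whole in 12 of 12 libraries. Lef1 overlaps the antisense transcript Gm43352 and was not whole in 11 libraries. The strand setting of the counting is not given in the sources used here, so reads of these genes and of their antisense partners cannot be told apart.

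Levels over the 6 groups are given first for the feedback inhibitors, which Wnt signalling induces and which then restrain it. Values are CPM per library, for comparing 1 gene between libraries. Axin2, a scaffold of the complex that destroys β-catenin and the most general Wnt target, had 122 and 101 CPM in knockout cells with JQ1 and 123 and 107 CPM with DMSO. In unmodified cells it had 65.0 and 67.2 CPM with JQ1 and 38.3 and 50.4 CPM with DMSO in 2iL, and 50.6 and 25.9 CPM with JQ1 and 43.6 and 29.0 CPM with DMSO in SL. All 4 knockout libraries thus stood above all 8 unmodified ones. JQ1 and DMSO overlapped in the knockout and in SL, 2iL with DMSO overlapped SL, and 2iL with JQ1 stood between these and the knockout.

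Notum, a secreted enzyme that inactivates Wnt ligands by removing their lipid, had 27.0 and 19.6 CPM in knockout cells with JQ1 and 39.2 and 42.9 CPM with DMSO. In 2iL it had 30.5 and 31.7 CPM with JQ1 and 63.2 and 71.4 CPM with DMSO, and in SL 2.91 and 1.98 CPM with JQ1 and 24.1 and 37.6 CPM with DMSO. The order was 2iL with DMSO, then the knockout with DMSO, then 2iL with JQ1 and SL with DMSO, which overlapped each other, then the knockout with JQ1, which overlapped SL with DMSO. SL with JQ1 was far below all others.

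Nkd1, which binds Dishevelled and dampens the Wnt signal, was low everywhere. It had 6.56 and 6.52 CPM in the knockout with JQ1 and 3.51 and 2.96 CPM with DMSO, 2.34 and 2.85 CPM in 2iL with JQ1 and 3.58 and 2.76 CPM with DMSO, and 6.73 and 4.84 CPM in SL with JQ1 and 3.89 and 2.46 CPM with DMSO. The 2 groups in serum with JQ1 were highest and overlapped each other, and the 3 DMSO groups overlapped one another.

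Lgr5, a receptor for R-spondins that marks Wnt-driven stem cells in adult tissues, was close to absent. It had 5 and 1 counts in the knockout with JQ1 and 3 and 4 with DMSO, 3 and 2 in 2iL with JQ1 and 0 and 0 with DMSO, and 50 and 36 in SL with JQ1 and 78 and 11 with DMSO. Scaled to depth, SL held 2.17 and 1.74 CPM with JQ1 and 1.59 and 0.563 CPM with DMSO, and no library of the knockout or of 2iL exceeded 0.224 CPM.

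Sp5 and Cdx1 are target genes that encode transcription factors. Sp5, a zinc-finger factor that acts on Wnt target promoters itself, had 25.0 and 21.4 CPM in the knockout with JQ1 and 29.9 and 37.3 CPM with DMSO, 30.6 and 34.2 CPM in 2iL with JQ1 and 44.2 and 44.4 CPM with DMSO. In SL it had 83.1 and 42.2 CPM with JQ1 and 126 and 73.6 CPM with DMSO. Its order was the reverse of that of Cdx1, with SL highest and the knockout lowest. The SL groups overlapped each other, SL with JQ1 enclosed 2iL with DMSO, and the knockout with DMSO overlapped 2iL with JQ1.

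Cdx1, a homeobox factor of the posterior embryo and intestine, had 141 and 136 CPM in the knockout with JQ1 and 105 and 103 CPM with DMSO. In 2iL it had 47.9 and 36.8 CPM with JQ1 and 54.4 and 28.0 CPM with DMSO, and in SL 1.65 and 1.21 CPM with JQ1 and 3.59 and 2.35 CPM with DMSO. The 3 settings were separated in every library, and only the 2iL groups overlapped each other.

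The TCF/LEF factors took different orders. Lef1, which mostly activates and is itself a Wnt target in many tissues, had 32.2 and 30.5 CPM in the knockout with JQ1 and 17.0 and 15.2 CPM with DMSO, 1.31 and 3.41 CPM in 2iL with JQ1 and 1.01 and 2.40 CPM with DMSO, and 75.8 and 52.5 CPM in SL with JQ1 and 35.8 and 29.3 CPM with DMSO. SL was highest, the knockout lower and 2iL lowest. SL with DMSO enclosed the knockout with JQ1, and the 2iL groups overlapped.

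Tcf7 (TCF1), which acts mostly with β-catenin as an activator, varied least. It had 56.0 and 53.5 CPM in the knockout with JQ1 and 45.6 and 49.6 CPM with DMSO, 41.5 and 40.6 CPM in 2iL with JQ1 and 58.8 and 60.5 CPM with DMSO, and 37.7 and 38.4 CPM in SL with JQ1 and 50.6 and 47.0 CPM with DMSO. The knockout and SL overlapped with DMSO, and the lowest levels were those of unmodified cells with JQ1.

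Tcf7l1, the repressor, had 40.1 and 40.8 CPM in the knockout with JQ1 and 31.4 and 36.8 CPM with DMSO. In 2iL it had 220.5 and 212 CPM with JQ1 and 202 and 155.5 CPM with DMSO, and in SL 126 and 161.5 CPM with JQ1 and 113 and 115 CPM with DMSO. The 4 knockout libraries were below all 8 unmodified ones, and among these 2iL with DMSO overlapped SL with JQ1.

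Tcf7l2 (TCF4), which can repress or activate, had 14.1 and 14.7 CPM in the knockout with JQ1 and 17.0 and 19.1 CPM with DMSO, 9.74 and 8.24 CPM in 2iL with JQ1 and 12.3 and 12.1 CPM with DMSO, and 20.3 and 15.8 CPM in SL with JQ1 and 28.3 and 21.1 CPM with DMSO. The 4 libraries in 2iL were lowest, SL with DMSO was highest, and the knockout with DMSO overlapped SL with JQ1.

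**Figure D1:**
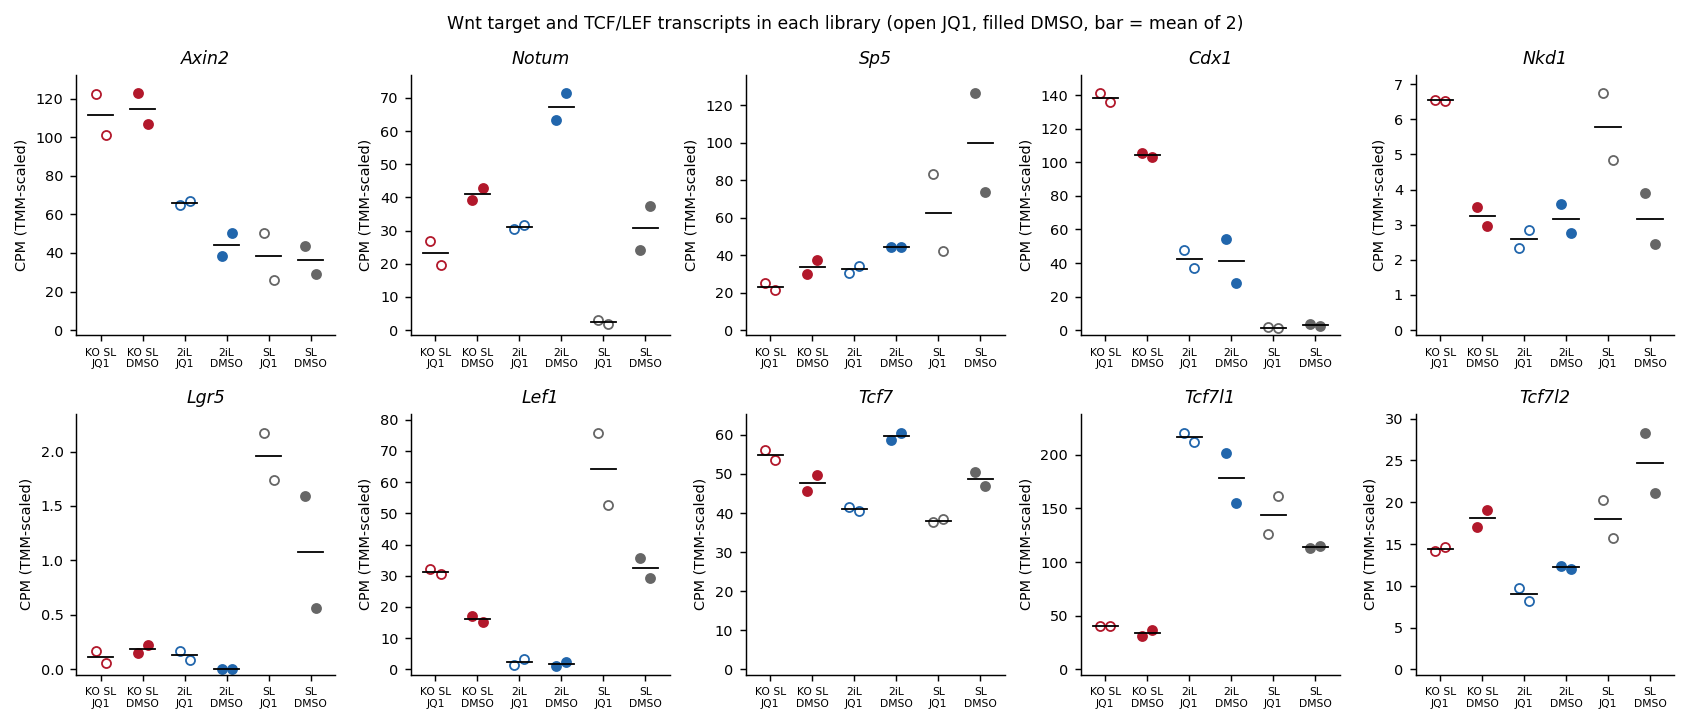
Each panel plots 1 gene in CPM (vertical axis, linear, from 0) in the 12 libraries, with the 6 groups along the horizontal axis, open circles for JQ1, filled circles for DMSO and a bar at the mean of the 2 libraries. Axin2 and Cdx1 are highest and Tcf7l1 lowest in the 4 knockout (KO) libraries, and Notum is lowest in SL with JQ1, at 2.91 and 1.98 CPM.

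To compare the 4 factors with each other, levels per length were taken from the deposited TPM (transcript levels scaled to depth and length). Tcf7l1 led in every unmodified library, and Tcf7 led in every knockout library. With DMSO, Tcf7l1 had 14.2 and 15.6 TPM and Tcf7 25.2 and 25.7 TPM in the knockout, against 97.6 and 80.7 TPM of Tcf7l1 and 34.0 and 37.4 TPM of Tcf7 in 2iL. In SL with DMSO Tcf7l1 had 52.1 and 50.2 TPM and Tcf7 27.9 and 24.4 TPM.

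As a share of the summed TPM of the 4 factors, Tcf7l1 made up 27.1% and 29.2% in the knockout with DMSO, 71.4% and 65.0% in 2iL and 49.5% and 54.3% in SL. With JQ1 the shares were 28.0% and 28.6% in the knockout, 78.4% and 78.0% in 2iL and 50.2% and 61.1% in SL. The summed level itself was lowest in the knockout, at 52.4 and 53.4 TPM with DMSO, against 137 and 124 TPM in 2iL and 105 and 92.6 TPM in SL. Lef1 held 0.28% and 0.81% of the sum in 2iL with DMSO, while it held 12.5% and 10.2% in the knockout and 13.01% and 11.3% in SL.

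**Figure D2:**
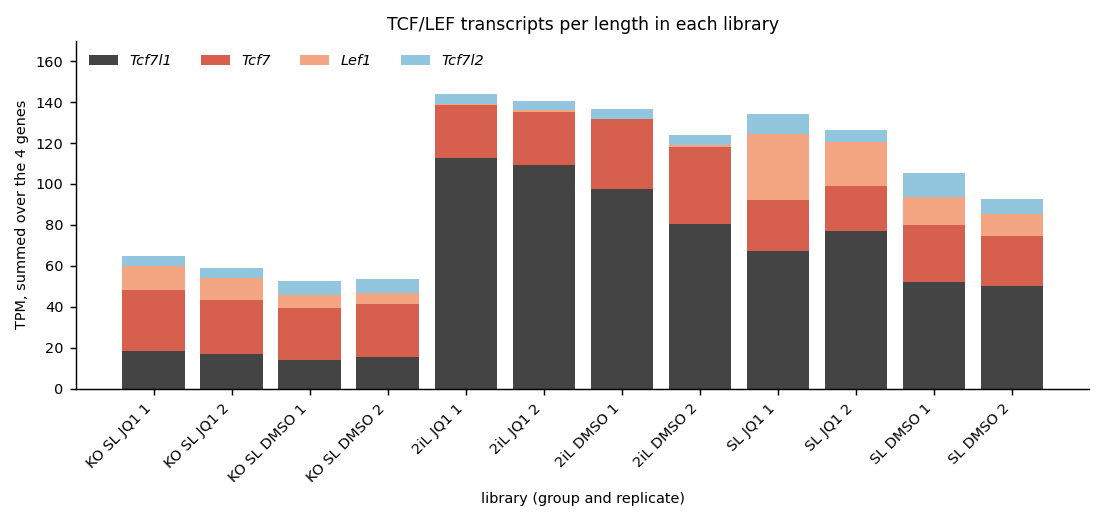
Stacked bars give the deposited TPM of Tcf7l1, Tcf7, Lef1 and Tcf7l2 (vertical axis, linear, from 0) in each of the 12 libraries. The knockout (KO) bars are the shortest, with summed levels between 52.4 and 64.9 TPM, and Tcf7l1, at the bottom of each bar, takes a smaller part of them than in any unmodified library.

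The comparison of knockout with unmodified cells in SL, both with DMSO, sets these genes side by side without a change of medium. Loss of GSK3 cannot be told apart there from a difference of clone or line, which the labels do not name. The targets did not move together. Cdx1 rose by 5.07 ± 0.30 on the log2 scale (adjusted p = 1.29e-07, edgeR's quasi-likelihood test with Benjamini-Hochberg adjustment, as in all tests below) and Axin2 by 1.65 ± 0.26 (adjusted p = 0.000281), whereas Sp5 fell by 1.58 ± 0.28 (adjusted p = 0.000721). Notum (0.42 ± 0.20, adjusted p = 0.118) and Nkd1 (-0.004 ± 0.28, adjusted p = 0.993) did not pass. Of the factors, Tcf7l1 fell by 1.74 ± 0.15 (adjusted p = 2e-06), and Tcf7 did not pass (-0.04 ± 0.10, adjusted p = 0.797).

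Lgr5, Lef1 and Tcf7l2 also passed, each lower in the knockout, at -2.57 ± 0.67 (adjusted p = 0.0097), -1.02 ± 0.29 (adjusted p = 0.0125) and -0.46 ± 0.17 (adjusted p = 0.0499). In all, 7 of 10 members passed, 2 higher and 5 lower, where 40% of the 16987 genes tested passed, 18.9% higher and 21% lower. Libraries of the compared groups did not overlap for 8 members (all but Nkd1 and Tcf7), as for 72.3% of all genes. The median change of the 9 members other than Lgr5 was -0.04, beside 0.01 over all genes. Leaving out SL DMSO replicate 1, the deepest library, ended the calls of Lgr5 (-1.56, adjusted p = 0.187), Lef1 (-0.86, adjusted p = 0.0896) and Tcf7l2 (-0.22, adjusted p = 0.442). Those 3 calls also went without KO DMSO replicate 1 (Lgr5 -2.31, adjusted p = 0.0861, Lef1 -1.10, adjusted p = 0.0505, Tcf7l2 -0.37, adjusted p = 0.253), and those of Lef1 (-0.94, adjusted p = 0.0813) and Tcf7l2 (-0.54, adjusted p = 0.0953) without KO DMSO replicate 2. With DESeq2, Lef1 did not pass (adjusted p = 0.0741), nor did Tcf7l2 with no low-count filter (adjusted p = 0.0514). Notum did pass, as higher in the knockout, with no low-count filter (0.42, adjusted p = 0.0312) and without SL DMSO replicate 2 (0.76, adjusted p = 0.0137).

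The rest of the pathway, from lists chosen with earlier results of these data known, is given by role. Of 17 Wnt ligand and secretion genes tested (21 listed), 12 fell and 2 rose, with a median of -3.53. Wnt3, which drives gastrulation, had 0.660 and 0.447 CPM in the knockout, against 111 and 64.3 CPM in SL, a change of -7.29 ± 0.50. Wnt4 (-6.24 ± 0.48), Wnt7b (-5.86 ± 0.57) and Wnt10a (-4.84 ± 0.70), all Wnt ligands, fell as well. The 2 that rose, named after their values were seen, were the ligand Wnt3a (2.25), at 2.54 and 2.40 CPM in the knockout against 0.550 and 0.461 CPM in SL, and Porcn (1.42), which attaches the lipid that Wnt proteins need for secretion. In the same comparison 9 of 11 fibroblast markers tested fell and 0 rose, 6 of 9 mesendoderm markers fell and 2 rose, 3 of 6 neural markers fell and 1 rose, and 8 of 10 primitive endoderm markers rose and 2 fell (median 2.52), among them the endoderm factors Gata6 (3.91 ± 0.30) and Sox17 (4.09 ± 0.43), both higher. Their part in the ligand changes was not tested.

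Of 17 receptor and R-spondin genes 8 fell and 3 rose (median -0.34). Fzd2, a Wnt receptor, changed by -4.18 ± 0.25, Rspo3, an R-spondin that strengthens the Wnt signal, by -4.06 ± 0.36, and the receptors Fzd1 by -3.06 ± 0.32 and Fzd8 by -1.89 ± 0.26. Secreted inhibitors were split, with 4 of 10 lower and 2 higher (median -0.77), among them Sfrp1, which binds Wnt ligands, higher by 1.41 ± 0.18, and its relative Sfrp2, lower (-0.86 ± 0.19).

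Among 15 genes for β-catenin and the partners of TCF/LEF proteins 6 rose and 2 fell (median 0.16). Tle6 (2.57 ± 0.34) and Aes (1.81 ± 0.19), both of the Groucho family of corepressors and short relatives, rose, and Bcl9l, a coactivator that binds β-catenin, fell by 1.41 ± 0.28. Ctnnb1, the gene of β-catenin itself, had 579 and 561 CPM in the knockout and 567.5 and 521 CPM in SL, and did not pass (0.07 ± 0.09, adjusted p = 0.588).

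The 4 naive pluripotency genes known in mouse ES cells as targets of Tcf7l1 repression (Esrrb, Nanog, Klf2 and Tfcp2l1) all rose in the knockout. Of the 8 ES cell markers, which include Nanog, 6 rose as well and 0 fell. A link to the level of Tcf7l1 was not tested. Tfcp2l1 rose by 2.87 ± 0.17, Esrrb by 2.33 ± 0.22, Nanog by 1.18 ± 0.14 and Klf2 by 0.63 ± 0.17, with a median of 1.75. Of 13 further Wnt target genes, 1 rose and 3 fell (median 0.14). Znrf3, a membrane ubiquitin ligase that removes Wnt receptors, rose by 0.82 ± 0.16, and Sp8, a relative of Sp5, fell by 3.15 ± 0.35. T (Brachyury), the mesoderm factor, had 74.2 and 80.3 CPM in the knockout and 124 and 75.2 CPM in SL, and did not pass.

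The comparison of 2iL with SL in unmodified cells, both with DMSO, asks how inhibition of GSK3 and MEK together with the change of medium moves the same genes. Cdx1 rose by 3.73 ± 0.29 (adjusted p = 2.74e-07) and Notum by 1.14 ± 0.20 (adjusted p = 0.00039), while Lef1 (-4.26 ± 0.36, adjusted p = 5.78e-07) and Tcf7l2 (-1.02 ± 0.18, adjusted p = 0.000282) fell. Tcf7l1 was higher in 2iL, by 0.65 ± 0.14 (adjusted p = 0.00165), in contrast to its fall in the knockout. Axin2 (0.28 ± 0.26, adjusted p = 0.384) and Nkd1 (-0.03 ± 0.28, adjusted p = 0.93) did not pass.

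Sp5 fell by 1.18 ± 0.28 (adjusted p = 0.00291), and Tcf7 rose by 0.29 ± 0.10 (adjusted p = 0.0275). Lgr5, with 0 and 0 counts in 2iL, was at least 7.8-fold lower than in SL taking 3 counts in each 2iL library as the floor (adjusted p = 0.000209). In all, 8 of 10 members passed, 4 in each direction, where 54.8% of all genes passed, 28.3% higher and 26.5% lower, and the median of the 9 members other than Lgr5 was 0.28, beside 0.04 over all genes. Libraries did not overlap for 8 members (all but Axin2 and Nkd1), as for 76.1% of all genes. Without SL DMSO replicate 1 Sp5 moved to -0.73 and lost its call (adjusted p = 0.0553), and without 2iL DMSO replicate 1 the change of Tcf7l1 shrank to 0.41 and kept it (adjusted p = 0.0339). The call of Tcf7 was lost without SL DMSO replicate 2 (0.23, adjusted p = 0.146), without 2iL DMSO replicate 1 (0.27, adjusted p = 0.0974) or 2iL DMSO replicate 2 (0.22, adjusted p = 0.164), with DESeq2 (adjusted p = 0.116), with RLE scaling (adjusted p = 0.0814), with no low-count filter (adjusted p = 0.117), when only the libraries compared were fitted (adjusted p = 0.188) and without mitochondrially encoded genes (adjusted p = 0.0607).

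In 2iL 13 of 17 ligand and secretion genes fell and 0 rose, with a median of -4.74 when a gene absent from 2iL was set at its floor. Wnt4 had 0.0459 and 0.0921 CPM in 2iL, against 72.5 and 37.0 CPM in SL, and Wnt3 had 0.505 and 0.276 CPM, against 111 and 64.3 CPM. Wnt5a (-7.57 ± 0.37) and Wnt8a (-6.77 ± 0.67) also fell to traces. The fibroblast markers moved the same way as these ligands, with 11 of 11 tested lower in 2iL, as did 6 of 10 primitive endoderm markers (1 rose), and which cells the SL ligand transcripts came from was not tested.

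Receptor and R-spondin genes were lower in 9 of 17 and higher in 2 (median -0.89), with Rspo3 (-6.92 ± 0.48), Fzd1 (-3.49 ± 0.33) and Fzd2 (-2.64 ± 0.22) lower. Of 10 secreted inhibitors 6 fell and 1 rose, which was Sfrp1, at 103 and 110.5 CPM in 2iL and 11.6 and 16.1 CPM in SL. Of 15 β-catenin partners 7 rose and 2 fell, with Aes higher by 2.24 ± 0.19.

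The 4 genes known as Tcf7l1 targets rose in 2iL, Tfcp2l1 by 3.31 ± 0.18, Esrrb by 2.61 ± 0.22, Nanog by 2.35 ± 0.15 and Klf2 by 1.48 ± 0.17. Tcf7l1 RNA was also higher there, and 6 of the 8 ES cell markers rose while 2 fell. A link between these changes was not tested. Of the 13 further Wnt targets 8 fell and 1 rose (median -1.83). T changed by -5.48 ± 0.30, the homeobox gene Cdx2 by -4.73 ± 0.52 and the growth regulator Myc by -3.53 ± 0.16. The mesendoderm markers, which include T, moved with them, with 7 of 9 tested lower, and their part was not tested.

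Knockout cells in SL, by their label, and unmodified cells in 2iL have GSK3 knocked out or inhibited, and these groups were compared with DMSO. They also differ in serum, in MEK inhibition (1 µM PD0325901 in 2iL only) and in feeder history, and may differ in clone or line. Genetic loss against inhibition of GSK3 cannot be told apart from these differences here. Axin2 was higher in the knockout by 1.37 ± 0.26 (adjusted p = 0.00102), Cdx1 by 1.34 ± 0.24 (adjusted p = 0.00075) and Lef1 by 3.24 ± 0.37 (adjusted p = 1.88e-05), and Tcf7l1 was lower (-2.39 ± 0.15, adjusted p = 1.42e-07). Sp5 (-0.40 ± 0.28, adjusted p = 0.276) and Nkd1 (0.03 ± 0.29, adjusted p = 0.947) did not pass, although Sp5 did with no low-count filter (adjusted p = 0.0271). In this comparison 8 of 10 members passed, 5 higher and 3 lower, where 43.3% of all genes passed, 21.3% higher and 22% lower, and libraries did not overlap for 9 members (all but Nkd1), as for 71.3% of all genes.

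The other 4 of these calls were weaker. Notum (-0.72 ± 0.20, adjusted p = 0.0123) and Tcf7 (-0.33 ± 0.10, adjusted p = 0.0203) were lower in the knockout, and Tcf7l2 was higher by 0.57 ± 0.18 (adjusted p = 0.0215). Notum was lost without 2iL DMSO replicate 2 (-0.60, adjusted p = 0.0726) or KO DMSO replicate 1 (-0.65, adjusted p = 0.0846), Tcf7 without 2iL DMSO replicate 1 (-0.33, adjusted p = 0.0625), 2iL DMSO replicate 2 (-0.28, adjusted p = 0.0927) or KO DMSO replicate 1 (-0.26, adjusted p = 0.165), and Tcf7l2 without 2iL DMSO replicate 1 (0.60, adjusted p = 0.0622), 2iL DMSO replicate 2 (0.57, adjusted p = 0.0651) or KO DMSO replicate 2 (0.48, adjusted p = 0.124). Lgr5 passed on 3 and 4 counts in the knockout and 0 and 0 in 2iL (adjusted p = 0.0299), and lost its call when any 1 of these 4 libraries was left out (adjusted p = 0.0591 to 0.105). Tcf7 was also lost with no low-count filter (adjusted p = 0.083) and when only these 4 libraries were fitted (adjusted p = 0.0636). This comparison and the 2 before it share the DMSO libraries of the 3 settings.

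In the knockout 8 of 17 ligand and secretion genes were higher than in 2iL and 0 lower, with Wnt5a, a ligand that signals mostly without β-catenin, at 3.96 and 5.87 CPM in the knockout against 0.184 and 0.138 CPM in 2iL. Markers of other cells were also higher in the knockout, at 9 of 11 fibroblast (0 lower), 9 of 10 primitive endoderm (0 lower) and 4 of 9 mesendoderm markers (1 lower), and their part was not tested. The other counts were 6 higher and 3 lower of 17 receptors and R-spondins, 5 higher and 2 lower of 10 secreted inhibitors, and 4 higher and 5 lower of 15 β-catenin partners. Of the 13 further Wnt targets 8 were higher and 1 lower (median 1.63). Cdx2 (5.50 ± 0.52), T (5.11 ± 0.30) and Myc (3.67 ± 0.16) were higher, and Sp8 was lower (-2.79 ± 0.35). Of the genes known as Tcf7l1 targets, 3 of 4 were lower in the knockout than in 2iL, namely Nanog (-1.17 ± 0.14), Klf2 (-0.85 ± 0.17) and Tfcp2l1 (-0.44 ± 0.16).

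**Figure D3:**
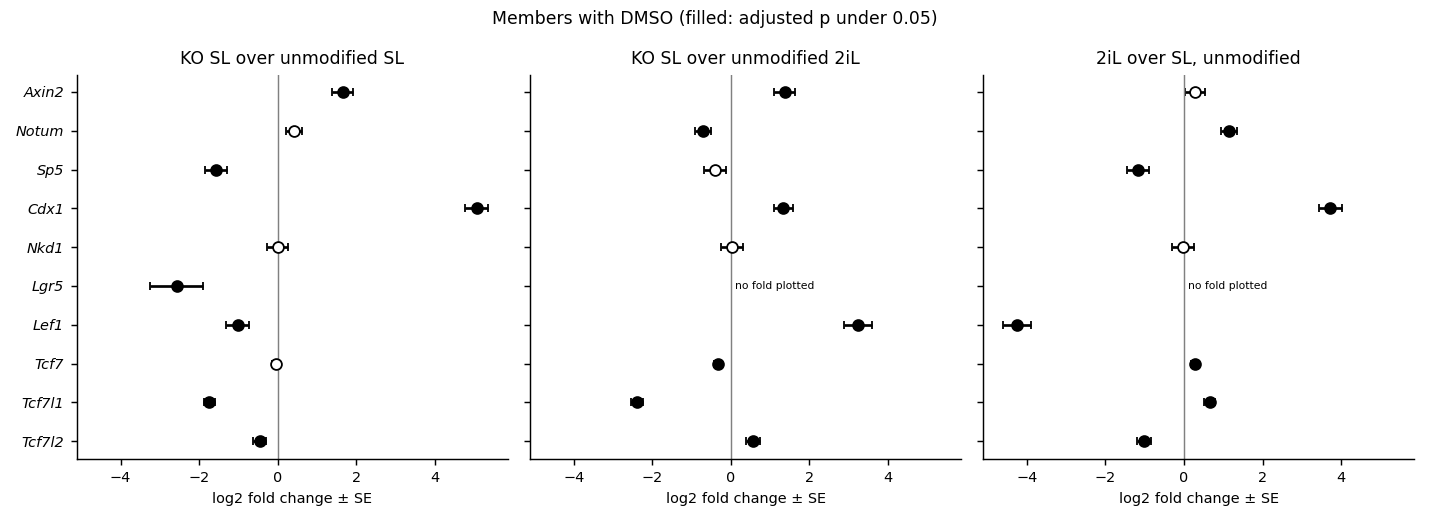
Log2 fold changes ± standard error (horizontal axis) of the 10 members with DMSO, for knockout (KO) SL over unmodified SL, knockout SL over unmodified 2iL, and 2iL over SL in unmodified cells, with filled symbols where the adjusted p was under 0.05. Cdx1 lies right of 0 in all 3 panels, Tcf7l1 lies left in the panels with the knockout and right in the last, and no fold is plotted for Lgr5 against 2iL, where it had 0 counts.

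The comparison of JQ1 with DMSO asks, in each setting, what BET inhibition does to these genes. Among genes that passed the low-count filter, Notum was the only member called in all 3 settings. Its log2 change was -0.81 ± 0.21 in the knockout (adjusted p = 0.00964), -1.12 ± 0.20 in 2iL (adjusted p = 0.00169) and -3.63 ± 0.25 in unmodified SL cells (adjusted p = 7.45e-06), where it fell 12.4-fold. Axin2 and Sp5 passed in none of the 3 settings in that fit. With no low-count filter Sp5 was lower in all 3, at -0.48 in the knockout (adjusted p = 0.00748), -0.45 in 2iL (adjusted p = 0.0158) and -0.65 in SL (adjusted p = 9.07e-05). The share of counts from mitochondrially encoded genes was lower with JQ1 in every setting, at 7.2% and 8.43% with JQ1 against 10.66% and 11.16% with DMSO in the knockout, 4.67% and 4.82% against 6.75% and 6.41% in 2iL, and 6.45% and 7.51% against 9.44% and 11.85% in SL. Leaving those genes out changed no JQ1 call of the 10 members.

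In the knockout 3 of 10 members passed with JQ1, 2 higher and 1 lower, where 34.1% of all genes passed, 14.6% higher and 19.5% lower. Nkd1 was higher by 1.01 ± 0.28 (adjusted p = 0.014) and Lef1 by 0.96 ± 0.29 (adjusted p = 0.0211). Axin2 (-0.04 ± 0.25, adjusted p = 0.924), Sp5 (-0.53 ± 0.29, adjusted p = 0.171), Cdx1 (0.41 ± 0.24, adjusted p = 0.198), Tcf7 (0.20 ± 0.10, adjusted p = 0.141), Tcf7l1 (0.25 ± 0.15, adjusted p = 0.214) and Tcf7l2 (-0.33 ± 0.18, adjusted p = 0.17) did not pass. Lgr5 had too few counts for a fold. The median over the members without Lgr5 was 0.20, beside -0.06 over all genes. JQ1 and DMSO libraries did not overlap for 8 members (all but Axin2 and Lgr5), as for 72.3% of all genes.

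None of these 3 calls in the knockout was kept whichever library was left out. Nkd1 lost its call without any 1 of the 4 libraries (0.90 to 1.15, adjusted p = 0.0501 to 0.0896), as did Lef1 (0.89 to 1.05, adjusted p = 0.0685 to 0.108), and Lef1 also with DESeq2 (adjusted p = 0.113). Notum lost it without KO DMSO replicate 2 (-0.74, adjusted p = 0.0555) or KO JQ1 replicate 2 (-0.60, adjusted p = 0.106). When only these 4 libraries were fitted, Sp5 (-0.50, adjusted p = 0.0119) and Cdx1 (0.44, adjusted p = 0.00144) passed as well, and so did both with no low-count filter (Cdx1 0.46, adjusted p = 0.00704).

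In 2iL 2 of 10 members passed with JQ1, both lower, where 28.5% of all genes passed, 11.2% higher and 17.3% lower. Beside Notum, Tcf7 fell by 0.54 ± 0.10 (adjusted p = 0.00206), and both calls were kept without any 1 library. Axin2 stood higher with JQ1 in both libraries (0.58 ± 0.26, adjusted p = 0.115) and Sp5 lower in both (-0.45 ± 0.28, adjusted p = 0.257), and these passed when only those 4 libraries were fitted (Axin2 0.60, adjusted p = 0.0287, Sp5 -0.42, adjusted p = 0.0409), and Axin2, like Sp5, also with no low-count filter (adjusted p = 0.000439). Cdx1 (0.04 ± 0.24), Nkd1 (-0.29 ± 0.29), Lef1 (0.52 ± 0.43), Tcf7l1 (0.28 ± 0.14) and Tcf7l2 (-0.45 ± 0.18) did not pass, although Tcf7l1 did without 2iL DMSO replicate 1 (0.48, adjusted p = 0.0431). The median over the members without Lgr5 was -0.29, beside -0.06 over all genes. JQ1 and DMSO libraries did not overlap for 7 members (all but Cdx1, Nkd1 and Lef1), as for 65% of all genes. The 7 include Lgr5, which had 3 and 2 counts with JQ1 and 0 and 0 with DMSO, too few for a fold.

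In unmodified SL cells 4 of 10 members passed with JQ1, 2 higher and 2 lower, where 21.3% of all genes passed, 8.54% higher and 12.8% lower. Nkd1 was higher by 0.83 ± 0.27 (adjusted p = 0.043) and Lef1 by 0.98 ± 0.27 (adjusted p = 0.0239), and Tcf7 was lower (-0.36 ± 0.10, adjusted p = 0.0242) beside Notum. Axin2 (0.07 ± 0.26, adjusted p = 0.882), Sp5 (-0.68 ± 0.27, adjusted p = 0.0978), Cdx1 (-1.11 ± 0.38, adjusted p = 0.0561), Lgr5 (0.79 ± 0.50, adjusted p = 0.293), Tcf7l1 (0.34 ± 0.14, adjusted p = 0.109) and Tcf7l2 (-0.46 ± 0.17, adjusted p = 0.0742) did not pass. The median over the members without Lgr5 was -0.36, beside -0.02 over all genes. JQ1 and DMSO libraries did not overlap for 8 members (all but Axin2 and Sp5), as for 59% of all genes.

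Of these calls in SL, that of Notum held without any 1 library (-3.94 to -3.29). Tcf7 lost its call without any 1 of the 4 libraries (-0.41 to -0.30, adjusted p = 0.0518 to 0.136). Lef1 lost it without SL DMSO replicate 1 (1.14, adjusted p = 0.0566), SL DMSO replicate 2 (0.84, adjusted p = 0.142) or SL JQ1 replicate 1 (0.69, adjusted p = 0.148) and with DESeq2 (adjusted p = 0.152). Nkd1 lost it without SL DMSO replicate 2 (0.57, adjusted p = 0.244) or SL JQ1 replicate 1 (0.58, adjusted p = 0.252), with DESeq2 (adjusted p = 0.0678), with the stricter filter (adjusted p = 0.0507) and when only these 4 libraries were fitted (adjusted p = 0.104), where Tcf7 was lost too (adjusted p = 0.126), as it was with no low-count filter (adjusted p = 0.11). Cdx1 passed with DESeq2 (adjusted p = 0.00569), and with no low-count filter so did Cdx1 (adjusted p = 3.52e-05), Sp5 (given above) and Tcf7l1 (0.36, adjusted p = 0.0371). Without SL DMSO replicate 2 Sp5 (-1.01, adjusted p = 0.0374) and Tcf7l2 (-0.65, adjusted p = 0.0424) passed, and without SL JQ1 replicate 1 Sp5 (-1.25, adjusted p = 0.00895) and Tcf7l1 (0.51, adjusted p = 0.0361).

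**Figure D4:**
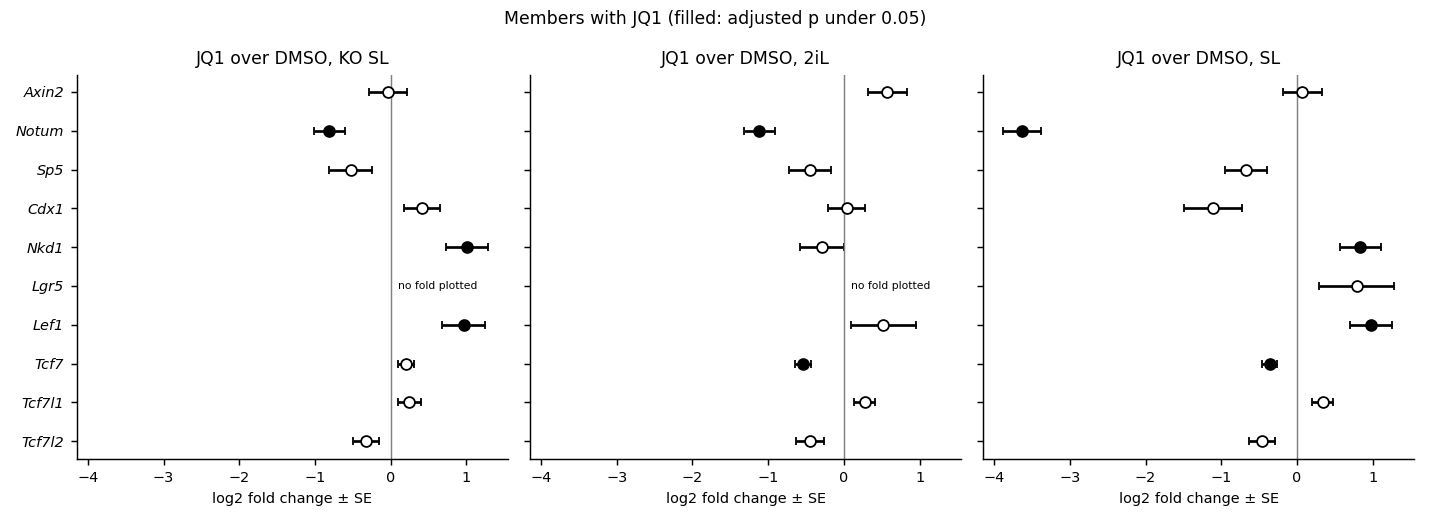
Log2 fold changes ± standard error (horizontal axis) of JQ1 over DMSO for the 10 members in knockout (KO) SL, 2iL and unmodified SL cells, with filled symbols where the adjusted p was under 0.05. Notum is left of 0 in all 3 panels and farthest left in SL, and Lgr5 is plotted only in SL because its counts elsewhere were 5 or fewer.

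The fall of Notum with JQ1 was of different size between the settings. Its change in the knockout exceeded (was less negative than) that in unmodified SL cells by 2.82 ± 0.33 (adjusted p = 0.000958), and that in 2iL exceeded the change in SL by 2.52 ± 0.33 (adjusted p = 0.00159). Both differences passed in every fit with 1 library left out (2.49 to 3.13 and 2.18 to 2.83). Both comparisons share the SL libraries with JQ1 and with DMSO.

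The antisense transcript Notumos moved in the same direction, with 4.12 and 2.90 CPM with JQ1 and 7.16 and 6.99 CPM with DMSO in the knockout, and 0.478 and 0.339 CPM with JQ1 and 2.83 and 5.22 CPM with DMSO in SL. In 2iL it had 5.47 and 7.37 CPM with JQ1 and 6.24 and 11.4 CPM with DMSO, which overlapped. In SL other markers fell along with Notum, namely 9 of 11 fibroblast and 8 of 9 mesendoderm markers tested, where 12.8% of all genes fell. The mesendoderm list fell to a summed 40.6 to 45.1 CPM with JQ1, against 178.6 to 256.9 CPM with DMSO, with 1 marker at 0 with JQ1. ES cell markers fell there as well, at 5 of 8 with 0 higher (median -1.01), while of 6 neural markers 0 fell and 0 rose. In the knockout 8 of 11 fibroblast and 2 of 9 mesendoderm markers fell, where 19.5% of all genes fell. The mesendoderm sum was 40.4 to 47.1 CPM with JQ1, against 138 to 150.5 CPM with DMSO. Of 8 ES cell markers in the knockout 2 fell and 1 rose. The part of any of these cells in the fall of Notum was not tested.

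Tcf7 was the other member whose response differed. Its JQ1 change in the knockout exceeded that in SL by 0.57 ± 0.14 (adjusted p = 0.0445), with JQ1 libraries above DMSO libraries in the knockout and below them in SL. That call was lost without any 1 of 7 of the 8 libraries (0.50 to 0.63, adjusted p = 0.0625 to 0.204), the exception being SL JQ1 replicate 2, and with no low-count filter (adjusted p = 0.0582) or in the fit of the libraries compared (adjusted p = 0.0633). For the knockout 2 of 10 members passed, both more positive than in SL, where 4.37% of all genes passed, 1.25% in that direction and 3.12% in the other. For 2iL 1 of 10 passed, where 4.16% of all genes did, 1.35% in that direction and 2.8% in the other. Cdx1, at 1.51 ± 0.45 for the knockout (adjusted p = 0.0756) and 1.14 ± 0.45 for 2iL (adjusted p = 0.206), did not pass, although it passed for the knockout with DESeq2 (adjusted p = 0.00511), with no low-count filter (adjusted p = 6.2e-07) and in the fit of the libraries compared (adjusted p = 0.0155), and for 2iL with no low-count filter (adjusted p = 0.00119) and without 2iL DMSO replicate 1 (1.70, adjusted p = 0.0142). The other members' differences did not pass, among them Axin2 at -0.11 ± 0.36 for the knockout and 0.51 ± 0.37 for 2iL.

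Around the members, the Wnt ligand and secretion genes that passed with JQ1 all fell. Of 17 tested, 3 fell in the knockout, 4 in 2iL and 6 in SL, and 0 rose in any of the 3 settings, where 19.5%, 17.3% and 12.8% of all genes tested fell and 14.6%, 11.2% and 8.54% rose in the knockout, 2iL and SL. For the knockout, and less closely for 2iL, the share of ligand genes that fell was thus near that of all genes. Wnt ligands were low in 2iL already with DMSO. Wnt5a passed there on 0.184 and 0.138 CPM with DMSO and 0 with JQ1, at least 1.07-fold lower at the floor. Wnt3a passed there on 0.643 and 0.230 CPM with DMSO and 0.114 and 0.0431 CPM with JQ1. Beside the marker counts given for Notum in the knockout and SL, 4 of 11 fibroblast markers fell and 1 rose in 2iL, and of 10 primitive endoderm markers 4 fell in the knockout, 3 in 2iL (1 rose) and 4 in SL. The part of these cells was not tested. Wnt5b was among those that fell each time (-1.83 ± 0.22 in the knockout, -0.92 ± 0.29 in 2iL and -2.06 ± 0.22 in SL). In SL, Wnt4 had 25.4 and 12.3 CPM with JQ1, against 72.5 and 37.0 CPM with DMSO, and Wnt10a (-2.59 ± 0.55) and Wnt8a (-2.34 ± 0.43) fell.

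Secreted inhibitors fell in 8 of 10 genes in the knockout and 5 in 2iL with 0 higher, and in SL 3 fell and 1 rose. Of all genes 19.5%, 17.3% and 12.8% fell in the knockout, 2iL and SL. Some of these inhibitors were low. In the knockout Sfrp5 had 0.206 and 0.167 CPM with JQ1 and 0.559 and 0.615 CPM with DMSO. Kremen2 had 0.240 and 0.167 CPM with JQ1 and 1.47 and 1.62 CPM with DMSO there. Sfrp1 had 18.6 and 24.0 CPM with JQ1 and 37.5 and 35.1 CPM with DMSO in the knockout, 47.8 and 36.5 CPM with JQ1 and 103 and 110.5 CPM with DMSO in 2iL, and 21.2 and 23.4 CPM with JQ1 and 11.6 and 16.1 CPM with DMSO in SL. It thus fell in the knockout (-0.78 ± 0.18) and in 2iL (-1.34 ± 0.17) and rose in SL (0.70 ± 0.18). The differences from SL were -1.48 ± 0.26 for the knockout (adjusted p = 0.00801) and -2.05 ± 0.25 for 2iL (adjusted p = 0.0014). Dkk3, a relative of the Dickkopf Wnt antagonists, fell in the knockout (-2.56 ± 0.24) and in 2iL (-2.74 ± 0.24).

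Receptor and R-spondin genes were split with JQ1, at 1 higher and 5 lower of 17 in the knockout, 5 higher and 4 lower in 2iL, and 2 higher and 3 lower in SL. Lrp5, a Wnt coreceptor, fell by 1.49 ± 0.14 in the knockout, and the receptor Fzd3 rose by 1.28 ± 0.15 in SL and 0.79 ± 0.16 in 2iL. Rspo3 had 2.00 and 1.26 CPM with JQ1 and 8.96 and 8.96 CPM with DMSO in SL.

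Genes of β-catenin and of TCF/LEF partners rose more often than they fell, with 7 higher and 2 lower of 15 in the knockout, 6 and 4 in 2iL, and 6 and 1 in SL. Ctnnb1 itself was higher with JQ1 in all 3 settings, by 0.56 ± 0.09 in the knockout, 0.48 ± 0.09 in 2iL and 0.52 ± 0.09 in SL. Ctnnbip1 (ICAT), which blocks the binding of β-catenin to TCF/LEF proteins, rose by 1.10 ± 0.15 in the knockout and 0.78 ± 0.15 in SL and did not pass in 2iL (0.02 ± 0.15). Aes fell in 2iL (-0.61 ± 0.18) and in SL (-0.99 ± 0.19).

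Of the 13 further Wnt targets, 2 rose and 5 fell in the knockout, 1 rose and 3 fell in 2iL, and 1 rose and 3 fell in SL. Ccnd1, a cyclin of the G1 phase and a Wnt target in several tissues, had 43.3 and 49.8 CPM with JQ1 and 135 and 147 CPM with DMSO in the knockout, 47.2 and 62.1 CPM with JQ1 and 145 and 166 CPM with DMSO in 2iL, and 122 and 89.8 CPM with JQ1 and 174 and 142 CPM with DMSO in SL. All 3 falls passed, and those in the knockout (difference -1.02 ± 0.24, adjusted p = 0.0301) and in 2iL (-0.93 ± 0.24, adjusted p = 0.046) were larger than that in SL. T fell in all 3 settings (-2.05 ± 0.24 in the knockout, -2.17 ± 0.49 in 2iL and -2.81 ± 0.25 in SL). Its level in 2iL was low throughout, at 0.456 and 0.518 CPM with JQ1 and 1.56 and 2.90 CPM with DMSO. Sp8 rose by 2.26 ± 0.36 in the knockout and 0.98 ± 0.28 in 2iL. The genes known as Tcf7l1 targets fell in 0 of 4 in the knockout with JQ1, in 0 of 4 in 2iL, where Tfcp2l1 rose (0.68 ± 0.16, adjusted p = 0.00737), and in 4 of 4 in SL. The difference from SL passed for 2 of them in the knockout (Nanog 1.58 ± 0.20 and Klf2 0.97 ± 0.24) and for 4 in 2iL (Nanog 1.83 ± 0.20).

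The genes most like each member over the 12 libraries were those whose centred log2(CPM + 1) differed least, as a root mean square, among tested genes with at least 5 CPM in a group. For Tcf7l1 the nearest was Gsk3a (0.20, where the deviation of Tcf7l1 from its own mean was 1.02), followed by Ephb4, an ephrin receptor (0.27). Notum was nearest to Upp1, which cleaves uridine (0.44, own deviation 1.37), with Notumos close behind (0.53). Cdx1 had the most distant neighbour, Tbx3, a T-box factor of the naive state (0.72, own deviation 2.25).

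Lef1 was nearest to Dusp6, a phosphatase induced by ERK signalling (0.36, own deviation 1.77), Sp5 to Vim, the intermediate filament vimentin (0.16, own deviation 0.71), and Axin2 to Tex15, a germline gene (0.30, own deviation 0.74). Tcf7l2 stood near Pdia3 (0.11) and Hspa5 (0.15), both of protein folding in the endoplasmic reticulum, with an own deviation of 0.45. Nkd1 was nearest to Nkain1 (0.19, own deviation 0.43) and Tcf7 to Tmeff1 (0.09, own deviation 0.22). Lgr5, low in all libraries, was nearest to Zhx3 (0.15, own deviation 0.59). These distances describe 12 libraries in 6 groups and carry no test.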

How the data were processed

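RNA of mouse ES cells was sequenced as paired reads in 12 libraries, 6 groups of 2. Per the file headers the deposited values are expected counts per gene, not scaled to depth, and TPM, scaled by the authors to depth and length. The submitters' processing notes name mm10 and the tools bcl2fastq, STAR 2.5.2, RSEM and DESeq2 1.18.1. Annotation release, strand setting and filters are not given in the sources used here. Testing used edgeR 4.0.16 (R 4.3.3) on the expected counts, rounded to whole numbers, of the 16987 genes that filterByExpr kept (minimum count 10, total 15). TMM scaling and a single quasi-likelihood model over the 6 groups (6 residual degrees of freedom) were applied. Calls are two-sided, at a Benjamini-Hochberg adjusted p under 0.05 over all genes tested. CPM are counts scaled to the TMM-adjusted library size, and standard errors were taken as the absolute log2 change divided by the square root of F.

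Symbols came from GENCODE M 21, which matched 52403 of 52550 identifiers (99.72%) without the version. Members, lists and naming rule were all chosen with earlier results of these data known. From each list up to 4 genes per comparison are named, by largest change among those passing and reaching 5 CPM in a group, besides genes given for a small count or for their levels. Where a group had no counts of a gene, 3 counts in each of its libraries served as the floor, which covers counting error only. Lgr5 was left out of medians because it had no counts in 2iL with DMSO. The settings changed, for the 10 members and not for the lists, were the tool (DESeq2 1.42.0), the scaling (RLE), the low-count filter (none, or 1 CPM in at least 4 libraries), the libraries fitted (only those compared), a replicate block, the removal of mitochondrially encoded genes, and each library left out in turn. In that last case the remaining library of the group is taken to vary as the other groups do. The test was also tried on simulated counts. The labels name no batch, and no library was excluded.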

Additional observations from a re-analysis of the deposited data

Results flagged for a closer look

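Differences of the JQ1 response between settings that passed their own test were found for 2 members. The change of Notum with JQ1 was less negative than in unmodified SL cells by 2.82 ± 0.33 in the knockout (adjusted p = 0.000958) and by 2.52 ± 0.33 in 2iL (adjusted p = 0.00159, edgeR's quasi-likelihood test), with JQ1 below DMSO in 2 of 2 libraries in each of the 3 settings. The change of Tcf7 in the knockout exceeded that in SL by 0.57 ± 0.14 (adjusted p = 0.0445), JQ1 being above DMSO in both knockout libraries and below it in both SL libraries, and that call is lost when any 1 of 7 of the 8 libraries is left out. Groups of 2 are too small to look for single libraries that stand apart.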

How the results depend on the processing

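Groups of 2 libraries and low counts limit these results, most of all for Lgr5 and Nkd1. Of 547 tests of single members under other settings 509 kept their side of the threshold, 18 lost their call, 20 gained one and 0 reversed. Direction was compared only where at least 1 of the fits passed, so tests that passed in neither may have changed sign. Of 400 with 1 library left out these numbers were 343, 50, 7 and 0. With no low-count filter Sp5, Cdx1 and Tcf7l1 gained a call for JQ1 in SL and Tcf7 lost its own. The members that passed in that fit numbered 4 for JQ1 in 2iL, 5 for JQ1 in the knockout and 2 for the JQ1 response in 2iL minus SL. In the fit of only the libraries compared they numbered 2 for JQ1 in SL, 4 for JQ1 in 2iL and 5 for JQ1 in the knockout. With 1 library left out they ran from 0 to 1 for JQ1 in the knockout, 2 to 3 for JQ1 in 2iL, 2 to 3 for JQ1 in SL, 4 to 8 for the knockout against unmodified SL cells, 4 to 6 for the knockout against 2iL, 1 to 2 for the JQ1 response in the knockout minus SL, and 1 to 2 for that in 2iL minus SL, and the number was 7 each time for 2iL against SL. The cause of these shifts was not tested, beyond the fewer libraries and other genes each fit holds.

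The labels do not say that replicate numbers pair cultures, so the numbers are taken as names only. The correlation of replicate differences over 15 pairs of groups ran from -0.27 to 0.31 and exceeded 0.1 in 9, among them JQ1 with DMSO in the knockout (0.21), in 2iL (0.19) and in SL (0.31), with only 2 replicates each. With the replicate block 5 members passed for JQ1 in SL, 2 for JQ1 in 2iL, 3 for JQ1 in the knockout, 7 for the knockout against SL, 8 for 2iL against SL and 8 for the knockout against 2iL, and 3 and 1 for the JQ1 response in the knockout and in 2iL minus SL. The block added Cdx1 for JQ1 in SL (-1.07, adjusted p = 0.0231) and for the response in the knockout minus SL (1.48, adjusted p = 0.0287), and changed no other call.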
